A study of Mus musculus with 8 samples.

Results

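The clustered protocadherins are cell surface adhesion proteins encoded by the alpha, beta and gamma gene clusters, which lie one after another on mouse chromosome 18. The members were the genes of the count table whose symbol marks them as an alpha, beta or gamma clustered protocadherin. They numbered 23 of the 16397 genes in the table, with 1 alpha gene (Pcdha10), 21 beta genes (Pcdhb2 to Pcdhb22) and 1 gamma gene (Pcdhgc4).

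The study sequenced total RNA of the embryonic hippocampus in a mouse model of hypertensive disease of pregnancy, in which the offspring show intrauterine growth restriction (IUGR). Wild-type C57Bl/6J dams received a pump at embryonic day E12.5 that delivered U-46619, an analog of the vasoconstrictor thromboxane A2, dissolved in a vehicle of dilute ethanol. Sham dams received a pump with the vehicle alone. Hippocampi were collected at E15.5 from offspring of both sexes, and the sex of each sample was not used here. The libraries came from 4 IUGR samples (T1-1, T1-3, T1-4 and T1-5) and 4 sham samples (S1-4, S1-6, S3-1 and S3-4), with 1 library per sample. The sources do not say what the prefix of a sample name stands for. All IUGR samples carry T1, so it cannot be told whether they came from separate litters. The p values therefore measure only the spread between these samples. The treatment reached the embryos through the dam, and IUGR cannot be told apart here from other effects of the drug or of maternal hypertension.

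Clustered protocadherins are expressed in neurons, which each choose a small set of isoforms from alternative promoters. Isoforms on opposing membranes bind when they match, and this lets the branches of one neuron recognize and avoid each other. Promoter choice depends on the insulator protein CTCF, on cohesin and on DNA methylation. Alpha and gamma transcripts join one variable exon, which encodes the extracellular and membrane part, to constant exons that encode a shared intracellular end. Beta genes have no constant exons, and each is a gene of its own.

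The exon structure decides what a count means in each cluster. In the GENCODE M21 annotation of GRCm38 the alpha cluster spans chr18:36930184-37187661, the beta cluster chr18:37264938-37524479 and the gamma cluster chr18:37661793-37841873, all on the plus strand. At least 90% of the gene models of the alpha cluster share 3 exon blocks at the 3′ end, with 2860 bases in all. In the gamma cluster the shared 3′ blocks also number 3 and hold 2116 bases. Because alpha genes share these exons with each other, and gamma genes likewise, a read from them fits most or all isoforms of its cluster, and the counts of the alpha and gamma genes are ambiguous. In a search of M21 transcripts for stretches of 50 bases that occur in another clustered protocadherin, 60.02% of the stretches of the alpha gene and 37.1% of those of the gamma gene were shared. Among the beta genes the shared part was between 1.504% and 11.99%, with a median of 4.82%.

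The annotation holds 58 gene models in the 3 clusters, and 35 of them have no line of their own in the table. These are 13 of the 14 alpha models, Pcdhb1 of the 22 beta models and 21 of the 22 gamma models. Which isoforms gave the reads counted on Pcdha10 and Pcdhgc4 cannot be told from the table. The identifier that the table calls Pcdha10, ENSMUSG00000007440, carries the name Pcdha11 in M21. Its model runs over chr18:37005203-37187657, from a variable exon to the constant exons. Pcdhgc4, ENSMUSG00000023036, lies at chr18:37815079-37841873 and belongs to the C-type isoforms, which unlike other isoforms tend to be expressed constitutively. The other C-type genes, Pcdhac1, Pcdhac2, Pcdhgc3 and Pcdhgc5, had no line of their own and were not analysed here. The values below are therefore those of the alpha gene as listed, of single beta genes and of the gamma gene as listed.

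Total counts per library were between 11212632 and 16672463, and the depths of the groups overlapped. Levels are given as CPM, the counts per 1000000 counts of a library after TMM adjustment of the library sizes. Fold changes are on the log2 scale, positive where IUGR was higher, with the standard error (SE) of edgeR's quasi-likelihood test. A gene was called at a Benjamini-Hochberg adjusted p of at most 0.05, over all 13707 tested protein-coding genes, together with a log2 change of 1 or more in size. All 23 members passed the filter on low counts.

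Most beta genes had a slightly higher fitted level in IUGR hippocampi, whereas no single member passed the test. The beta genes were not tested as a set. None of the 23 members was called, beside 1.46% of all tested genes called in either direction. Of the 21 beta genes, 20 had a higher fitted level in IUGR, beside 44.5% of all tested genes. Their median log2 fold change was 0.44, beside -0.02 over all tested genes. The alpha gene had a log2 fold change of 0.48 and the gamma gene one of 0.05, and neither was called. DESeq2's Wald test and limma-voom, with both criteria, also called no member, and gave an unadjusted p under 0.05 in 6 and 7 beta genes. These tests called 425 and 328 of all tested genes, against 200 in edgeR. Their shares of all tested genes under that unadjusted p are not given here.

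Summed over the 21 beta genes, the levels of T1-1, T1-3, T1-4 and T1-5 were 104.8, 143.6, 119.6 and 147.6 CPM. The sums of S1-4, S1-6, S3-1 and S3-4 were 91.4, 99.7, 99.0 and 81.5 CPM. Every IUGR sum lay above every sham sum, and T1-1 was close to the highest sham sample. The mean was 129 ± 20.3 CPM for IUGR and 92.9 ± 8.49 CPM for sham (SD, n = 4), a ratio of 1.39. The log2 ratio of the means was 0.47. It lay between 0.40 and 0.56 when each sample was left out in turn, and was 0.46 without the member with the most counts. The beta sums rest on 989 to 2336 counts per sample.

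The alpha gene carried 57.6, 95.9, 68.4 and 66.2 CPM in the IUGR samples, in the same order. In the sham samples it carried 49.8, 63.1, 44.9 and 49.3 CPM. T1-3 was high and S1-6 exceeded T1-1, so the groups overlapped. The log2 fold change was 0.48 (SE 0.18, 95% interval 0.08 to 0.88), with an edgeR unadjusted p of 0.0236 and an adjusted p of 0.308. The unadjusted p was no longer under 0.05 without T1-3, where it was 0.0606, without S3-1, where it was 0.0611, or without S3-4, where it was 0.0554. The log2 fold change was then 0.34, 0.41 and 0.45.

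The gamma gene had the highest level per length of all members, with 60.2 CPM per kb of exon in IUGR and 58.0 in sham. The level was 375.7 CPM for T1-1, 405.2 for T1-3, 317.6 for T1-4 and 249.5 for T1-5. Among sham samples it was 300.5 CPM for S1-4, 428.6 for S1-6, 212.7 for S3-1 and 356.7 for S3-4. The highest and the lowest of the 8 values were both sham samples, and the groups overlapped. The log2 fold change was 0.05 (SE 0.22), and its 95% interval of -0.43 to 0.54 held both a modest decrease and a modest increase. The edgeR adjusted p was 1.00. Leaving out single samples changed the sign of this small difference, to -0.02 without T1-3 and -0.10 without S3-1, and without S1-6 it was 0.25.

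**Figure D1:**
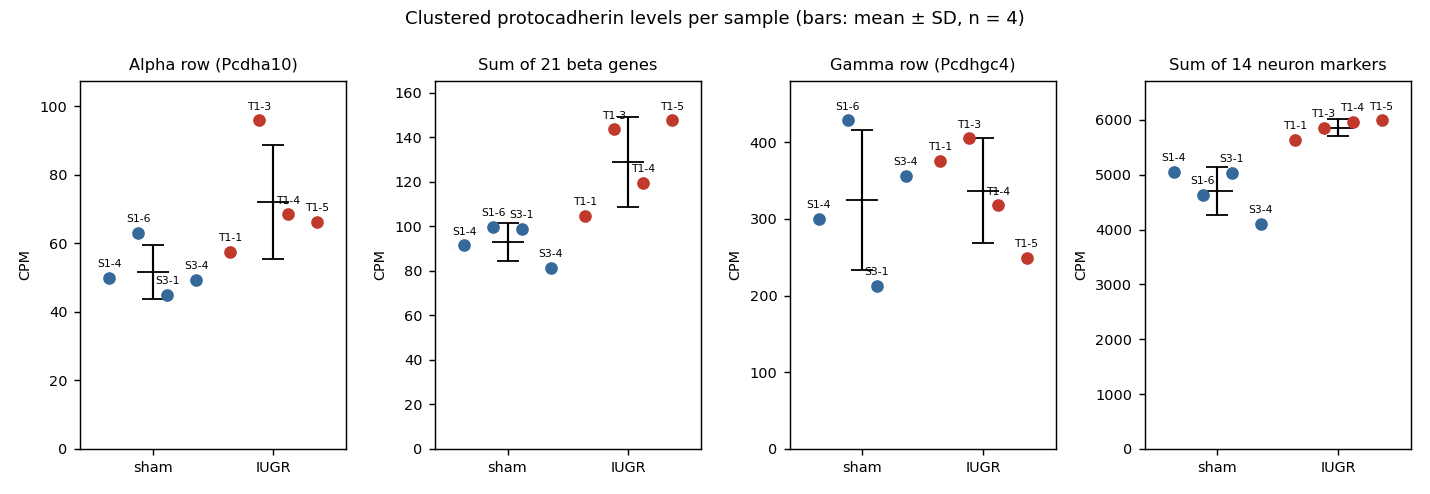
Level in CPM (vertical axes, from 0) of the alpha gene, the sum of the 21 beta genes, the gamma gene and the sum of 14 neuron markers in each sham (blue) and IUGR (red) sample, with the mean and SD of 4 samples in black. The groups do not overlap for the beta sum (IUGR 104.8 to 147.6, sham 81.5 to 99.7) or the neuron markers, and overlap for the alpha and gamma genes.

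The clusters did not keep a fixed ratio across samples. The alpha level was 21.8 ± 4.75% of the gamma level in IUGR and 16.6 ± 3.24% in sham (SD, n = 4), with values of 15.3% to 26.5% and 13.8% to 21.1% that overlapped. An exact two-sided permutation test of the log2 ratio gave p = 0.114, where 4 against 4 samples cannot go under 0.0286. The beta sum was 1.82 ± 0.305 times the alpha level in IUGR and 1.82 ± 0.280 times in sham (SD, n = 4). The beta sum was 40.0 ± 13.4% of the gamma level in IUGR and 30.8 ± 11.1% in sham (SD, n = 4), again with overlap. These ratios compare counts and not molecules, since the genes differ in length and in shared exons.

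Within the beta cluster, 7 of the 21 genes had an edgeR unadjusted p under 0.05, all higher in IUGR. Over all tested genes, 4.46% had such a p with a higher level and 6.62% with a lower level. The smallest adjusted p among the members was 0.136, that of Pcdhb20. With DESeq2's Wald test and the adjusted p alone, without the fold criterion, 2 beta genes passed (Pcdhb19 and Pcdhb20), beside 1.21% of all tested genes higher in IUGR by that rule. In 6 of the 21 beta genes every IUGR value lay above every sham value, beside 2.08% of all tested genes, and in none did every IUGR value lie below every sham value, beside 5.06%. Beta genes lie side by side and come from the same libraries, so they are not independent of each other.

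**Figure D2:**
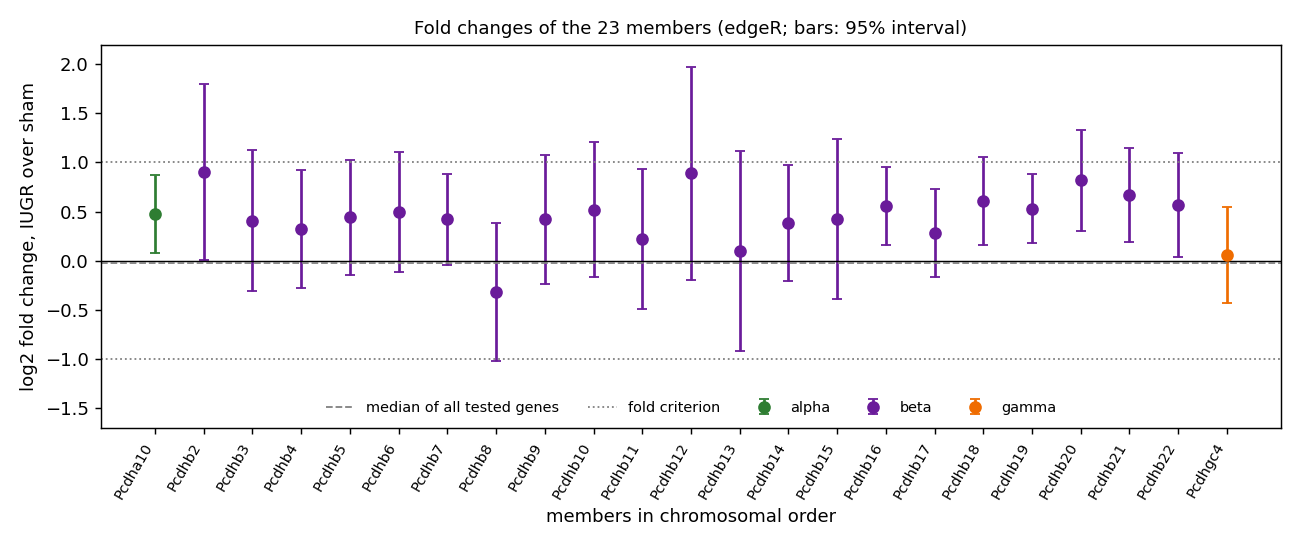
Log2 fold change of IUGR over sham (vertical axis) for the 23 members in chromosomal order, with 95% intervals from edgeR's quasi-likelihood test. The dashed line marks the median of all tested genes (-0.02) and the dotted lines the fold criterion of 1 in either direction; Pcdhb8 is the only member below 0.

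Pcdhb20 had the smallest p. T1-1, T1-3, T1-4 and T1-5 held 8.02, 11.25, 7.08 and 9.35 CPM, against 5.45, 6.23, 4.31 and 4.28 CPM for S1-4, S1-6, S3-1 and S3-4. All IUGR values were above all sham values. The log2 fold change was 0.82 (SE 0.23, edgeR unadjusted p = 0.00524, adjusted p = 0.136), a ratio of 1.76 with a 95% interval of 1.23 to 2.52. The gene lies at chr18:37504264-37507822 and, as each beta gene does, consists of 1 exon.

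Pcdhb19 gave the most counts of the beta genes, with a mean of 216 per sample. The IUGR samples held 18.1, 20.2, 18.8 and 21.1 CPM, and the sham samples 14.05, 15.7, 12.9 and 11.5 CPM, listed as before. The groups did not overlap and the IUGR values were close together. The fitted log2 difference was 0.53 (SE 0.16, the smallest of the cluster), with an edgeR unadjusted p of 0.00686 and an adjusted p of 0.160.

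Pcdhb21 was at 6.14, 7.99, 6.99 and 9.43 CPM in T1-1, T1-3, T1-4 and T1-5 and at 5.08, 4.33, 5.10 and 4.70 CPM in S1-4, S1-6, S3-1 and S3-4. Its log2 fold change was 0.67 (SE 0.21, edgeR adjusted p = 0.199). The 3′ end of its model overlaps the start of Pcdhb22 on the same strand, and 11.3% of its stretches of 50 bases occur in other clustered protocadherins, so some of its reads may belong to its neighbours.

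Pcdhb16 was at 11.8, 13.2, 11.9 and 15.4 CPM in the IUGR samples, in the same order, and at 8.78, 10.04, 9.02 and 7.70 CPM in the sham samples. Its log2 fold change was 0.56 (SE 0.18, edgeR adjusted p = 0.202). Pcdhb18 was at 7.12, 8.11, 7.84 and 9.89 CPM in IUGR and at 5.92, 5.37, 5.65 and 4.70 CPM in sham. Its log2 fold change was 0.61 (SE 0.20, edgeR adjusted p = 0.219). In both genes, as in Pcdhb21, the lowest IUGR sample was T1-1 and lay above the highest sham sample.

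Pcdhb17 had the highest level per length of the beta genes and a smaller difference. It carried 12.51, 16.2, 14.9 and 17.5 CPM in the IUGR samples and 12.9, 12.3, 15.9 and 9.20 CPM in the sham samples, with S3-1 above T1-1 and T1-4. This was a log2 fold change of 0.28 (SE 0.20, edgeR adjusted p = 0.844), which was 0.15 without S3-4. Pcdhb13 had the lowest level per length, with 6 to 24 counts per sample. Its values were 0.82, 1.11, 0.67 and 1.83 CPM in IUGR and 1.29, 1.13, 1.33 and 0.43 CPM in sham, and its log2 fold change of 0.10 (SE 0.46) changed sign with the samples used: it was -0.24 without T1-5, -0.17 without S3-4 and -0.12 against the S1 sham samples alone.

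The remaining beta genes are named after their values were seen. Pcdhb2 had the largest fitted difference, a log2 fold change of 0.90 (SE 0.40, edgeR unadjusted p = 0.0486, adjusted p = 0.443). It carried 0.97, 2.03, 1.85 and 1.52 CPM in IUGR and 1.02, 1.30, 0.55 and 0.57 CPM in sham, from 7 to 33 counts. Pcdhb22 was at 7.57, 10.4, 8.51 and 10.9 CPM in IUGR and at 4.90, 7.19, 8.08 and 5.13 CPM in sham. Its log2 fold change was 0.57 (SE 0.24, edgeR adjusted p = 0.386), and S3-1 exceeded T1-1. Pcdhb6 completes the genes without overlap, with 2.25, 2.27, 2.02 and 2.97 CPM in IUGR against 1.76, 1.90, 1.65 and 1.43 CPM in sham, although its edgeR unadjusted p was 0.0989.

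Pcdhb8 was the only beta gene with a lower fitted level in IUGR. Levels of 1.65, 3.07, 2.36 and 3.35 CPM in the IUGR samples stood beside 2.22, 3.29, 4.31 and 3.21 CPM in the sham samples, with overlap. The fitted log2 difference was -0.32 (SE 0.32, edgeR adjusted p = 0.983). Pcdhb12, with a log2 fold change of 0.89 (SE 0.49), had the widest interval, and T1-3 alone held 47 of its counts. The other beta genes, Pcdhb3 to Pcdhb5, Pcdhb7, Pcdhb9 to Pcdhb11, Pcdhb14 and Pcdhb15, had log2 fold changes between 0.22 (Pcdhb11) and 0.52 (Pcdhb10), and their groups overlapped.

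**Figure D3:**
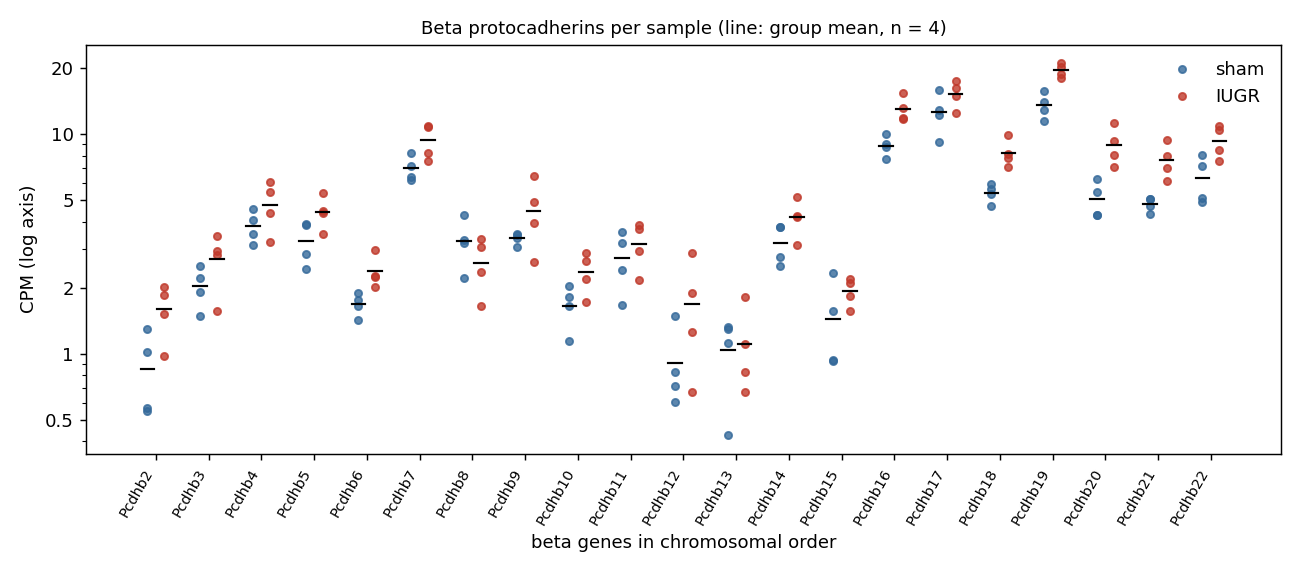
CPM (vertical axis, log scale) of each beta gene in each sham (blue) and IUGR (red) sample, in chromosomal order, with a black line at each group mean. Red and blue points are apart in Pcdhb6, Pcdhb16, Pcdhb18, Pcdhb19, Pcdhb20 and Pcdhb21, and the level varies far more between genes than between groups.

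The genes with the smallest p values were mostly in the part of the cluster with more counts. Among the 7 genes from Pcdhb16 to Pcdhb22 at the gamma end of the cluster, 6 had an edgeR unadjusted p under 0.05 and 5 had no overlap. Pcdhb17, inside this run, had neither. Among the 14 genes from Pcdhb2 to Pcdhb15 these counts were 1 and 1, with the largest fold changes (Pcdhb2 and Pcdhb12) among them. Over all tested genes, 4.46% had such a p with a higher level, and 2.08% had every IUGR value above every sham value. The division into these sets was made after the values were seen and was not tested. The median log2 fold changes were 0.57 and 0.42, whereas the median of the mean counts was 103 in the first set and 34.6 in the second. Across the 21 beta genes the standard error was smaller where the mean count was higher (Spearman's rho -0.93), and the fold change had a rho of 0.31 with the order on the chromosome and of 0.08 with the mean count. These are descriptions over genes that share their libraries. The 95% interval reached a log2 fold change of 1 in 13 of the 21 beta genes.

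The makeup of the beta cluster was similar in all samples. Pcdhb16, Pcdhb17 and Pcdhb19 were the highest 3 by CPM in 8 of 8 samples, and Pcdhb19 led in 7 of them, with Pcdhb17 first in S3-1. Per kb of exon, the mean level ran from 0.290 CPM in Pcdhb13 to 2.99 CPM in Pcdhb17, a ratio of 10.3. Pearson's correlation of log2 CPM over the 21 genes was 0.94 to 0.98 in the 6 pairs of IUGR samples, 0.89 to 0.95 in the 6 pairs of sham samples and 0.87 to 0.97 in the 16 pairs between groups. Pairs between groups were thus about as alike as pairs of sham samples. The genes from Pcdhb16 to Pcdhb22 held 64.0 ± 3.00% of the beta CPM in IUGR and 60.8 ± 1.96% in sham (SD, n = 4), with overlap.

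The largest shifts in share, IUGR minus sham, were -1.58 percentage points for Pcdhb17, -1.52 for Pcdhb8 and 1.48 for Pcdhb20. Pcdhb17 held 11.9% of the beta CPM in IUGR and 13.5% in sham, Pcdhb8 1.99% and 3.51%, and Pcdhb20 6.94% and 5.46%. The share of Pcdhb8 was 1.57% to 2.27% in the IUGR samples and 2.43% to 4.36% in the sham samples, without overlap. These genes were picked for the size of their shift, and the shifts were not tested.

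**Figure D4:**
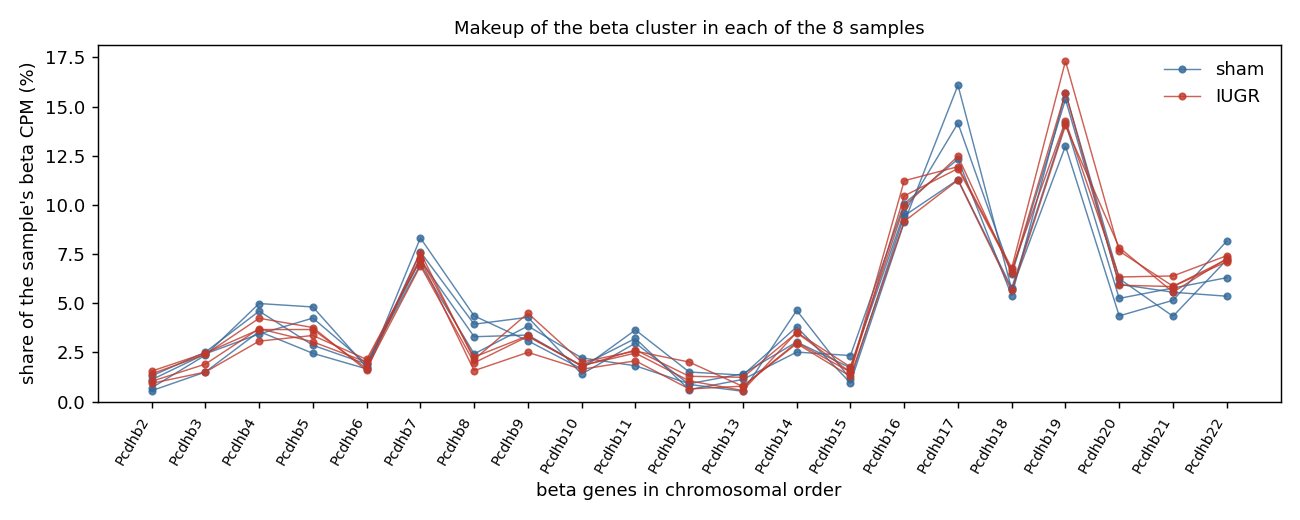
Share of each beta gene in the summed beta CPM of a sample, in percent (vertical axis, from 0), for the 4 sham (blue) and 4 IUGR (red) samples, genes in chromosomal order. The lines of all 8 samples follow the same course, with the largest shares at Pcdhb16, Pcdhb17 and Pcdhb19.

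Samples of one group also differed in the whole beta cluster at once. Among the IUGR samples, T1-1 had the lowest value in 18 of the 21 beta genes, T1-5 the highest in 12 and T1-3 the highest in 9. Without T1-1, 10 beta genes had an edgeR unadjusted p under 0.05, and without T1-3 or without T1-5 it was 5 in each fit. Against the S1 sham samples alone 1 beta gene had such a p, and against the S3 sham samples alone it was 6, while the median log2 fold change of the beta genes was 0.39 and 0.65. These fits called 0 and 2 of all tested genes. Without T1-1, T1-3 or T1-5 the calls were 65, 211 and 298, against 200 with all samples. The share of all tested genes under that unadjusted p in each of these fits is not given here. The count of beta genes with a higher fitted level was 18 against S1 and 20 against S3.

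Fitted levels of the neuron markers leaned in the same direction as those of the beta genes, and neither group was tested as a set. The 14 neuron markers were all higher in IUGR in the fit, with a median log2 fold change of 0.46, beside 44.5% of all tested genes higher. None was called, beside 1.46%, and 7 had an edgeR unadjusted p under 0.05, beside 4.46% with such a p and a higher level. They summed to 5642 to 5991 CPM per IUGR sample and 4104 to 5047 CPM per sham sample, without overlap. Syt1, a calcium sensor of synaptic vesicles, had the smallest p of them (log2 fold change 1.08, SE 0.25, edgeR adjusted p = 0.0629). Per 1000 CPM of neuron markers, the beta sum lay between 18.6 and 24.6 CPM for IUGR and between 18.1 and 21.5 CPM for sham, and the groups overlapped. On this scale the ratio of the beta means was 1.11, in place of 1.39 on the CPM scale. The markers with the highest levels weigh most in this sum: Map2, Tubb3 and Dcx, with IUGR means of 1766, 1685 and 937 CPM. Their log2 fold changes of 0.27, 0.20 and 0.34 were under the list median of 0.46, so the ratio depends on how the markers are combined. The alpha gene had a ratio of 1.11 per neuron markers and the gamma gene one of 0.82, both with overlap. In whole tissue, fewer cells of a type and less RNA per cell cannot be told apart, and the part of the cell makeup in the beta difference was not tested.

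Markers of other cell types are given for the same reason. For the choroid plexus, 15 of the 17 markers were tested and all 15 had lower fitted levels in IUGR, 4 of them called (Folr1, Cldn2, Otx2 and Car12), beside 1.46% of all tested genes called and 44.5% higher. The 17 markers summed to 46.3 to 1252 CPM per IUGR sample and 5691 to 12394 CPM per sham sample. None of the 17 was at 0 in any sample. The 7 meninges markers were higher in the fit but not called, with sums between 68.5 and 2719 CPM for IUGR and between 261 and 534 CPM for sham, and T1-3, the sample with the highest alpha level, had the highest sum. Of the 11 radial glia and progenitor markers 4 were higher and 7 lower in the fit, with a median of -0.11, and their sums, 3104 to 3843 CPM against 3235 to 4378 CPM for sham, overlapped. Of 9 tested hippocampal markers 2 were higher and 7 lower, with a median of -0.34 and none called. An edgeR unadjusted p under 0.05 was found for Nrp2 (log2 fold change 0.78), Etv1 (0.87) and Prox1 (-0.56), beside 4.46% of all tested genes with such a p and a higher level and 6.62% with a lower level. Prox1, which marks dentate granule neurons, was detected in every sample, with 24.0 to 39.6 CPM for IUGR and 28.9 to 59.2 CPM for sham. Most other lists also leaned higher in the fit, beside 44.5% of all tested genes higher, with no called gene and overlapping sums: 6 of 6 microglial markers were higher (median log2 fold change 0.30), 7 of 7 erythroid (0.41), 5 of 5 oligodendrocyte lineage (0.39), 5 of 6 endothelial (0.55), 7 of 8 interneuron (0.16) and 4 of 6 Cajal-Retzius (0.25). In these lists Olig1 (log2 fold change 1.22), Sox10 (2.24), Flt1 (0.61) and Calb2 (0.87) had an edgeR unadjusted p under 0.05, all higher, beside the same 4.46%. The Sox10 value rests mainly on T1-3, at 11.1 CPM. T1-5 had 1.90 CPM, and T1-1 and T1-4, at 0.75 and 0.67 CPM, lay within the sham range of 0.39 to 1.13 CPM. The neuron list was thus not the only one whose median was positive. The part of these lists in the protocadherin values was not tested.

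None of 22 regulators of clustered protocadherin promoters was called, beside 1.46% of all tested genes, or had an edgeR unadjusted p under 0.05, beside 4.46% higher and 6.62% lower. So few calls in a list of this size are near the background, and their median log2 fold change was -0.01. The smallest p values belonged to Rest, a repressor of neuronal genes, with a log2 fold change of -0.31 (SE 0.17, edgeR adjusted p = 0.616), to Setdb1, a histone H3 lysine methyltransferase, with -0.13 (SE 0.11), and to Wapl, which releases cohesin from DNA, with -0.14 (SE 0.13). Ctcf and the cohesin subunits were in this list.

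Among 19 genes listed here as signalling partners of the clustered protocadherins, none was called, beside 1.46% of all tested genes. An edgeR unadjusted p under 0.05 was found for 2, both higher in IUGR, beside 4.46%. Ret, a receptor tyrosine kinase that interacts with clustered protocadherins, had 1.37 to 6.33 CPM in the IUGR samples against 0.356 to 1.11 CPM in the sham samples, without overlap, as did 2.08% of all tested genes in that direction. Its log2 fold change was 2.42 (SE 0.53, edgeR adjusted p = 0.0542). Robo1, an axon guidance receptor, had 282 to 317 CPM in the IUGR samples against 146 to 273 CPM in the sham samples, with a log2 fold change of 0.61 (SE 0.18, edgeR adjusted p = 0.164). The median of the list was 0.06, and Fyn, a kinase of the Src family, had a log2 fold change of 0.17 (SE 0.12).

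The delta protocadherins are relatives outside the clusters. Of 9 tested genes 8 were higher and 1 lower in the fit, beside 44.5% of all tested genes higher, and the median log2 fold change was 0.34. None was called, and 2 (Pcdh7 and Pcdh8) had an edgeR unadjusted p under 0.05, beside 4.46% of all tested genes with such a p and a higher level. Pcdh8 had a log2 fold change of 0.61 (SE 0.21, edgeR adjusted p = 0.230), Pcdh7 one of 0.51 (SE 0.17, edgeR adjusted p = 0.227) and Pcdh17 one of 0.43 (SE 0.24, edgeR adjusted p = 0.652). None of 12 neighbours of the clusters on the chromosome was called or had an edgeR unadjusted p under 0.05, which at the same background shares says nothing particular about them. Their median was 0.03, with Rell2 at 0.50 (SE 0.24, edgeR adjusted p = 0.512), Arap3 at 0.47 (SE 0.27) and the mitochondrial carrier gene Slc25a2, which lies between the beta and gamma clusters, at 0.36 (SE 0.42).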

How the data were processed

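Total RNA of E15.5 hippocampi was depleted of ribosomal RNA and sequenced as stranded single reads, 1 library for each sample. Alignment by the authors was to GRCm38, the deposited values are raw counts per gene, and the submitters' processing notes list Novoalign 2.8. The counting program, the annotation release and the strand setting are not given in the sources used here; a counter that drops reads shared by genes would lose reads of the constant exons, and one that assigns them at random would spread them. Ensembl identifiers were looked up in GENCODE M21, which held 16124 of 16397. The study's count criterion (at least 10, under 50000) was put on the mean over samples and left 13707 protein-coding genes. All 8 samples entered 1 fit of edgeR 4.0.16 under R 4.3.3 (TMM, quasi-likelihood test, no covariate), with Benjamini-Hochberg adjustment across the tested genes. CPM uses TMM-adjusted library sizes, and level per kb divides CPM by the merged exon length in M21. Scripts were tested on simulated data.

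The members and the lists were chosen with earlier results of these data known. Named genes are the C-type isoforms, in each cluster the 5 members with the smallest p, the 3 with the highest mean CPM and those with the largest and smallest share, any gene called in another list and otherwise its 3 with the smallest p; other members are said to be named after their values were seen. Samples were grouped by their treatment label. Alternatives covered upper-quartile scaling or DESeq2 size factors within edgeR, DESeq2's own Wald test (version 1.42.0), limma-voom (limma 3.58.1), other gene filters, leaving out each sample in turn, and shams of a single prefix (S1 or S3). The labels name no batch, and what the prefixes stand for is not given.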

Additional observations from a re-analysis of the deposited data

How the results depend on the processing

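Of 289 alternative values of the results, with the fold changes of the single alpha and gamma genes not counted again as cluster medians or sums, 277 kept their direction and their side of the threshold or moved by less than the spread between replicates. No beta gene was called under any alternative that kept both criteria, and 18 to 20 of the 21 beta genes were higher in IUGR under every normalization, test, filter and choice of samples run. With the adjusted p of DESeq2's Wald test alone and no fold criterion, an alternative chosen after seeing the data, 2 beta genes passed, Pcdhb19 (adjusted p = 0.0295) and Pcdhb20 (adjusted p = 0.0331), beside 1.21% of all tested genes higher by that rule. The count of beta genes with an unadjusted p under 0.05 was 5 to 10 with a sample left out and 1 against the S1 sham samples alone. For the alpha gene this count was 0 to 1 with a sample left out and 0 against the S1 sham samples alone. The share of all tested genes under that p in these refits is not given here. The log2 fold change of Pcdhb13 was -0.24 to 0.27 with a sample left out and -0.12 against S1 alone, and that of Pcdhgc4 was -0.10 to 0.25 and -0.11. The log2 ratio of the mean gamma CPM was -0.10 to 0.22 with a sample left out. The cause was not tested; against the S3 sham samples alone, also 4 against 2 samples, the count of beta genes was 6, and Pcdhb13 was at 0.37 and Pcdhgc4 at 0.26. No paired analysis was possible because the sample numbers do not mark pairs across the groups. Standard errors were larger in beta genes with fewer counts, and the shared exons limit what the alpha and gamma values stand for.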
